A study of Mus musculus with 12 samples.

Results

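The comparison set 3 pituitary libraries from mice given a cre virus, called cre_vehicle 1 to 3, beside 3 from mice given a control virus, called ctrl_vehicle 1 to 3. These are 6 of the 12 libraries of the series, chosen by their titles. All 6 came from C57BL/6 mice with a floxed Gpr101 gene (Gpr101fl/fl), and all received vehicle and no ligand for 1 week. The groups differed in the virus, named Cga-creAAV or Cga-ctrlAAV in the genotype labels. The other 6 libraries had the same 2 genotypes and received the ligand AA14, and they form a second pair of groups, ctrl_AA14 and cre_AA14. They also enter the model, whose estimate of spread comes from all 12 libraries. The labels put Cga before the virus without describing the construct, and the sources used here give no age, sex, virus dose or route. Whether each library stands for its own mouse is not stated, so a p-value here reflects how much the libraries varied. The design text states that the pituitary was dispersed into single cells and passed through flow cytometry, and it does not say whether cells were sorted.

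Gpr101 encodes an orphan receptor that couples to Gs and raises cyclic AMP, the messenger through which hypothalamic hormones drive several pituitary cell types. Cre recombinase deletes DNA that lies between loxP sites, and AAV, adeno-associated virus, is a common vector for delivering it. Cga encodes the subunit shared by luteinizing, follicle-stimulating and thyroid-stimulating hormone, and it is expressed in gonadotrophs and thyrotrophs.

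Counts per gene totalled 48693682 to 73388221 in the 6 libraries. Genes were kept on level, which left 22630 of 55421 gene IDs, and levels are given as CPM, the standard unit of counts relative to the library total, after scaling between libraries. The 7 hormone genes took 17.6% to 27.5% of the counts, so the tissue label fitted its defining markers. Libraries within each group differed from each other. Among the 16358 genes that averaged 1 CPM or more, cre_vehicle 1 lay farthest from the median of the 6 for 37.5% and ctrl_vehicle 3 for 29.6%, against 6.05% to 11.7% for each of the other 4. ctrl_vehicle 3 held Schwann cell and hypothalamic transcripts, ctrl_vehicle 3 and cre_vehicle 2 held oligodendrocyte transcripts, and cre_vehicle 1 held high levels of nuclear-retained RNAs, as given below.

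The floxed gene, Gpr101, was low in both groups and its level did not separate them. Gpr101 (ENSMUSG00000036357, GRCm38 chrX:57496668-57503757, minus strand) was at 1.65, 1.22 and 16.1 CPM in ctrl_vehicle and 2.43, 4.29 and 1.29 CPM in cre_vehicle. The groups overlapped, and the highest value, in ctrl_vehicle 3, was above each of the other 5. The difference in mean log2(CPM + 0.5), cre_vehicle minus ctrl_vehicle, was -0.43 (exact two-sided permutation p = 0.9, where 3 against 3 libraries allow no p below 0.1). The edgeR log2 fold change was -1.24 (SE 0.89, 95% interval -3.20 to 0.71, unadjusted p = 0.190). Without ctrl_vehicle 3 the log2 difference turned to 0.61 (exact permutation p = 0.4). In ctrl_vehicle 3 the Gpr101 level came with 293 CPM of Avp, the vasopressin gene of hypothalamic neurons, and none of the other 5 vehicle libraries exceeded 17.8 CPM of Avp. The part of such RNA in the Gpr101 value was not tested. The files give whole-gene counts, so they do not show whether the floxed stretch itself was lost, and in bulk samples fewer cells of a type and less RNA per cell cannot be told apart.

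**Figure D1:**
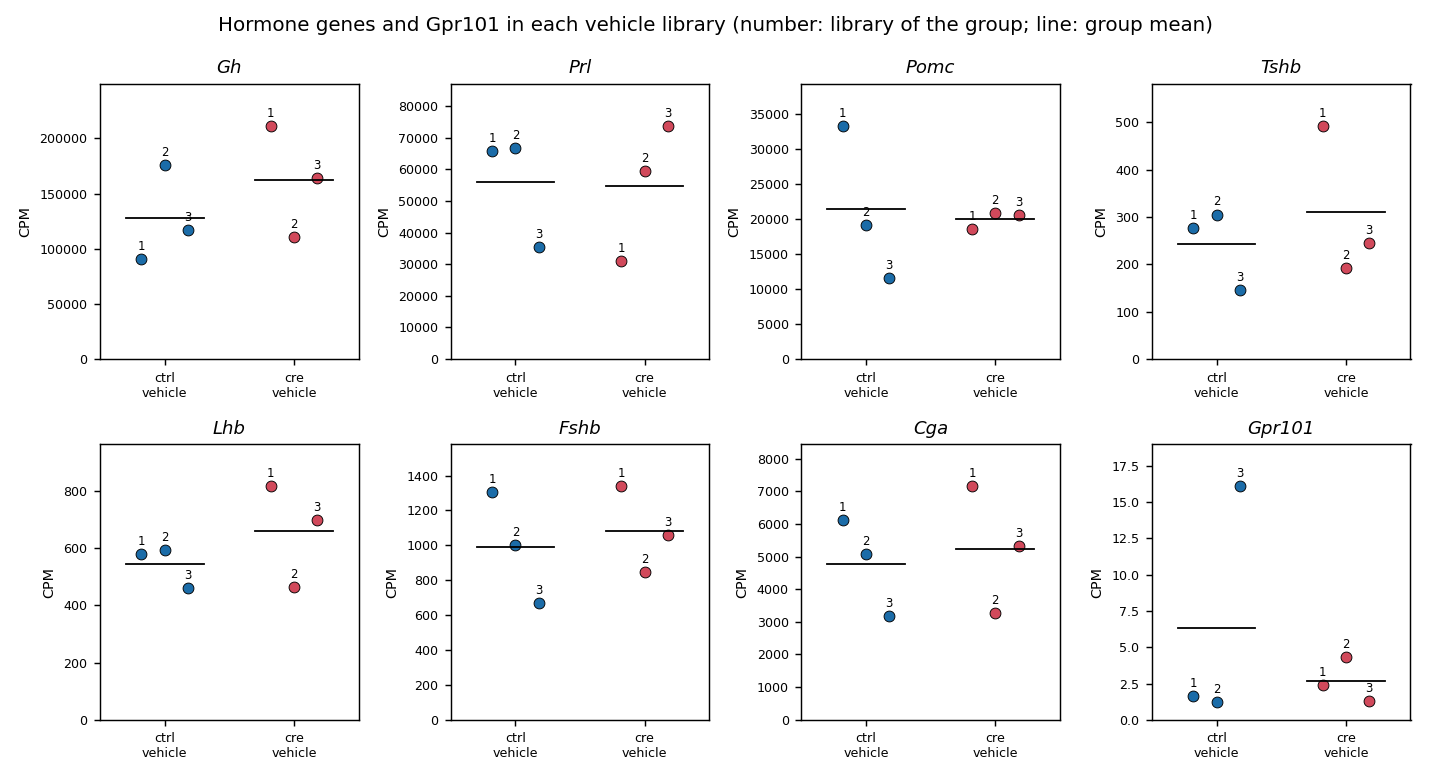
Level in CPM (vertical axis, starting at 0) of 7 hormone genes and Gpr101 in the 3 ctrl_vehicle and 3 cre_vehicle libraries. Points carry the library number and lines are group means. The groups overlap in all 8 panels, and the 16.1 CPM of Gpr101 in ctrl_vehicle 3 stands above the other 5 values.

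Across all expressed genes, 1 passed the test: Gm47308, which was higher in cre_vehicle. That is 0.00442% of the 22630 genes (edgeR quasi-likelihood test, Benjamini-Hochberg adjusted p under 0.05). Limma-voom called Gm47308 and Krcc1 (0.00884%) and DESeq2 called 19 genes. At an unadjusted edgeR p under 0.05 there were 452 genes, 2% of those tested, of which 211 (0.932%) were higher and 241 (1.06%) lower. Evenly spread p-values, as with no difference in any gene, would put a share of 0.05 there. With the model fitted to the 6 vehicle libraries only, 230 genes were under that p and Gm47308 passed. The 3 cre_vehicle libraries lay entirely above the 3 ctrl_vehicle libraries for 541 genes (2.39%) and entirely below for 572 (2.53%), together 4.92%. With random labels a share of up to 0.1 would separate so, the smallest exact permutation p for 3 against 3 libraries. Differences were small for most genes: among genes averaging 1 CPM or more the median absolute log2 fold change was 0.14, and 415 genes (2.54%) differed by more than 1. The median standard error there was 0.26. The 95% interval lay within 2-fold in both directions for 11376 of these 16358 genes, 69.5%, so for the other genes a difference of that size was not excluded.

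**Figure D2:**
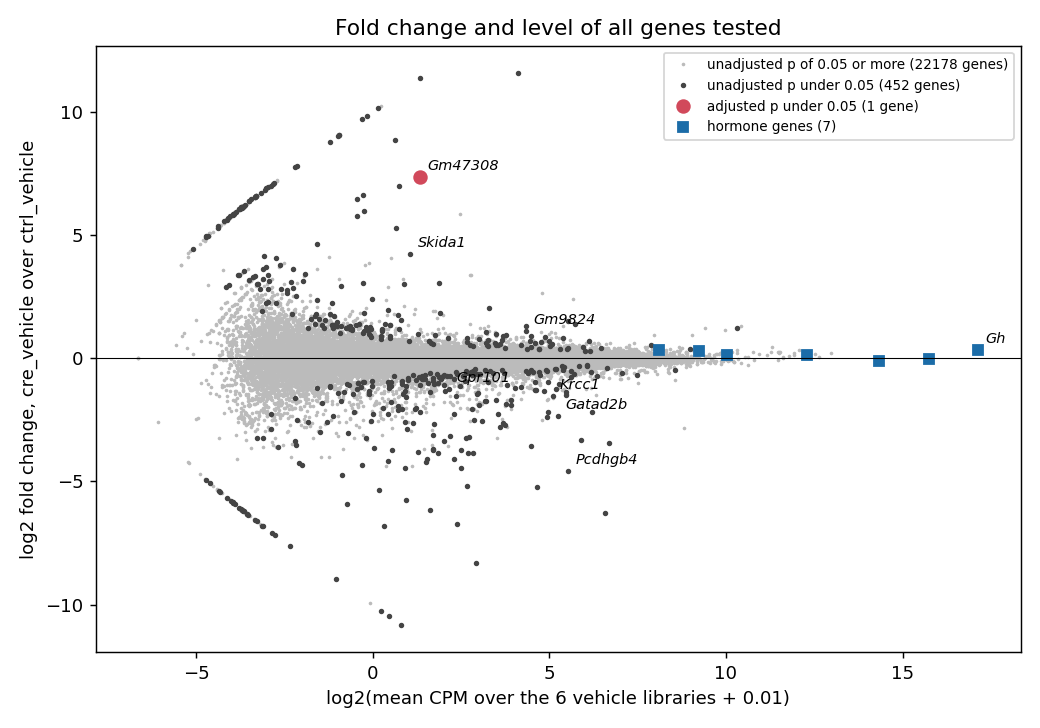
Log2 fold change of cre_vehicle over ctrl_vehicle (vertical axis) against log2(mean CPM + 0.01) over the 6 vehicle libraries (horizontal axis) for the 22630 genes tested. Dark points are the 452 genes at an unadjusted p under 0.05, the red point is Gm47308 and blue squares are the 7 hormone genes, which lie near 0. The diagonal arms at low levels are genes with no counts in 1 of the groups.

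Few counts were assigned to Gm47308 in ctrl_vehicle, and many more in cre_vehicle. Rab11a, which holds the same sequence, had counts in both groups, as given below. Gm47308 (ENSMUSG00000104953, GRCm38 chr9:64726624-64726730, minus strand) is annotated as a miRNA gene of 107 bp that lies inside an exon of Rab11a, a small GTPase of recycling endosomes. Every 31-base stretch of it, 77 of 77, also occurs in Rab11a transcripts. Its last 73 bases, at chr9:64726624-64726696, are coding sequence of Rab11a; they are shown because the only gene past the threshold cannot be told from Rab11a by sequence, and the capitals mark a start codon annotated in a Rab11a transcript.
Gm47308, Rab11a coding part: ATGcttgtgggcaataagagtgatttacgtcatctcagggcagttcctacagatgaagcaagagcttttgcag

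The level of Gm47308 was 0.0295, 0.0284 and 0.0275 CPM in ctrl_vehicle and 4.15, 4.87 and 6.03 CPM in cre_vehicle. No cre_vehicle library came near a ctrl_vehicle library. The 2 groups held 6 and 961 counts, a ratio of 174 per total count (95% interval 79.4 to 474, counting error only), and the edgeR log2 fold change was 7.37 (SE 0.34, adjusted p = 3.84e-06). The 6 libraries that received AA14 held 4.15, 5.08 and 4.46 CPM in ctrl_AA14 and 6.62, 4.37 and 6.19 CPM in cre_AA14, so the 3 ctrl_vehicle libraries stood apart from the other 9 whichever virus these had. The difference of the cre effect between AA14 and vehicle was -7.04 on the log2 scale (edgeR adjusted p = 4.36e-05), the only gene past the threshold for that difference, where 1591 genes (7.03%) had an unadjusted p under 0.05. The count is uncertain, since the assignment of reads that fit both genes is not given in the sources used here. Rab11a itself was at 118, 108 and 108 CPM in ctrl_vehicle and 78.2, 88.2 and 88.9 CPM in cre_vehicle, lower in each cre_vehicle library (log2 fold change -0.39, SE 0.13, edgeR unadjusted p = 0.0137), and it did not pass the threshold. With AA14 Rab11a was at 78.0, 84.3 and 76.1 CPM in ctrl_AA14 and 107, 79.3 and 95.6 CPM in cre_AA14, where the groups overlapped.

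Krcc1 came next. Krcc1 (ENSMUSG00000053012, chr6:71271677-71285319), which encodes a lysine-rich coiled-coil protein, was at 62.4, 54.0 and 36.6 CPM in ctrl_vehicle and 18.2, 15.2 and 19.0 CPM in cre_vehicle. The groups did not overlap (log2 fold change -1.55, SE 0.19, edgeR adjusted p = 0.0566, short of the threshold). It passed with RLE size factors, limma-voom, DESeq2 and without ctrl_vehicle 3 (adjusted p = 0.00386, where the alternatives ranged from 3.70e-10 to 1.00). With the vehicle libraries only its edgeR adjusted p was 1.00. In the libraries that received AA14, Krcc1 was at 16.3, 17.6 and 18.8 CPM in ctrl_AA14 and 19.6, 18.2 and 19.8 CPM in cre_AA14, all within the range of cre_vehicle or close to it. Here too the 3 ctrl_vehicle libraries stood apart from the other 9. Slc39a9, a zinc transporter, showed the same layout in part, with 75.6, 85.6 and 29.2 CPM in ctrl_vehicle and 23.1, 26.8 and 23.8 CPM in cre_vehicle. Its level in ctrl_vehicle 3 was near that of cre_vehicle, and the 6 AA14 libraries held 21.4 to 29.3 CPM (edgeR log2 fold change -1.37 with SE 0.31, unadjusted p = 0.00100). It passed in edgeR without ctrl_vehicle 3 (adjusted p = 0.00516) and in DESeq2 (adjusted p = 0.0412), with alternatives from 0.00516 to 1.00.

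**Figure D3:**
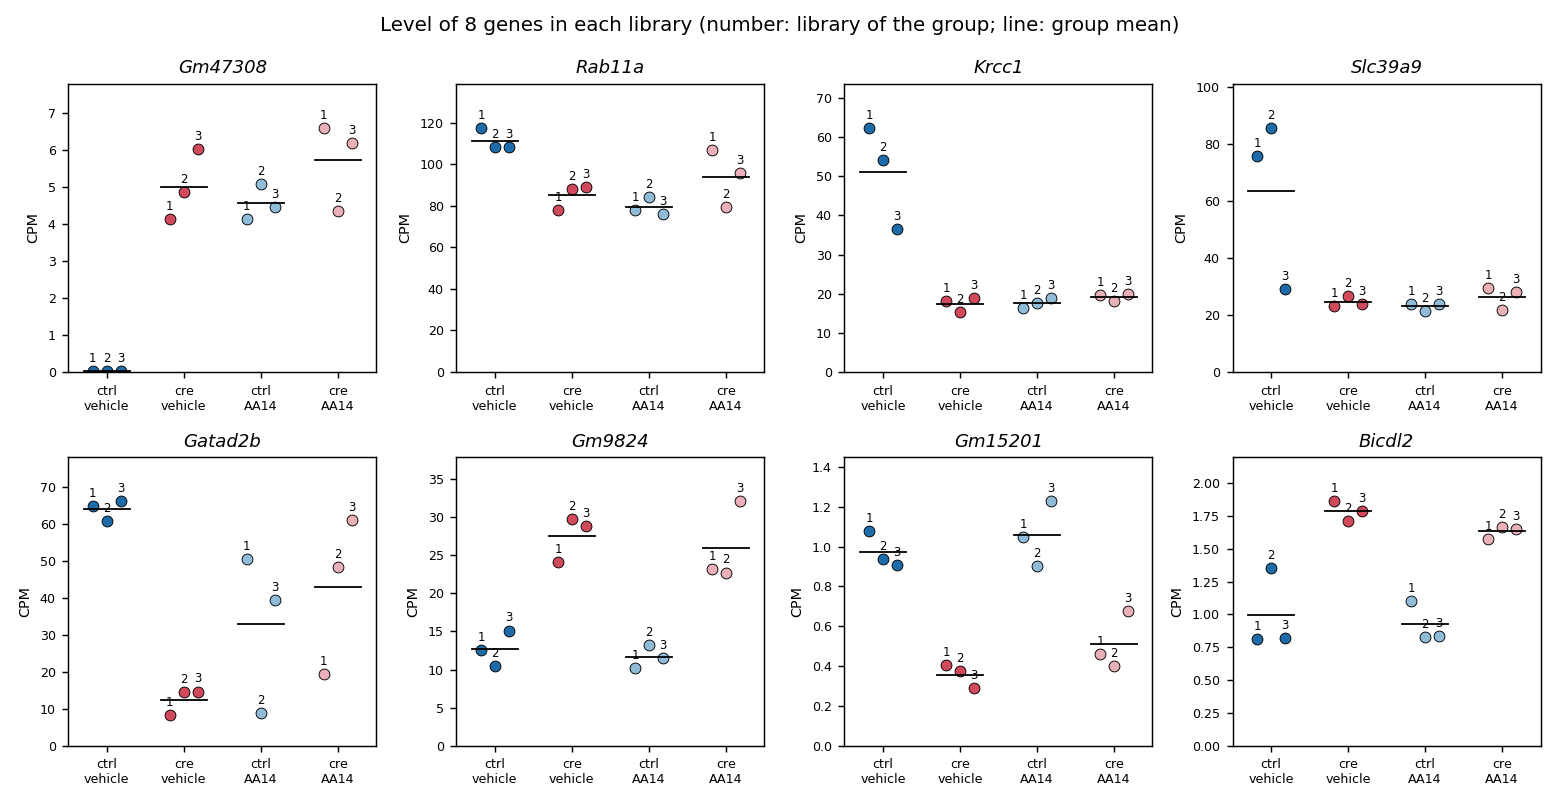
Level in CPM (vertical axis, starting at 0) of 8 genes in all 12 libraries, grouped by virus and treatment. Points carry the library number and lines are group means. Gm47308, Krcc1 and, in libraries 1 and 2, Slc39a9 set ctrl_vehicle apart from the other 3 groups, while Gm9824, Gm15201 and Bicdl2 separate the 6 cre from the 6 control libraries.

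Gatad2b encodes a subunit of the NuRD chromatin-remodelling complex. It was at 64.8, 60.8 and 66.1 CPM in ctrl_vehicle and 8.23, 14.6 and 14.7 CPM in cre_vehicle, groups that lie far apart (edgeR log2 fold change -2.35 with SE 0.56, unadjusted p = 0.00145; DESeq2 adjusted p = 0.0122, and 0.0122 to 1.00 over the alternatives). With AA14 its levels of 50.4, 8.90 and 39.5 CPM in ctrl_AA14 and 19.4, 48.2 and 61.0 CPM in cre_AA14 spread over both ranges within each genotype. The 12 genes of smallest p in the lower direction, among named genes at 1 CPM or more whose groups did not overlap, also held Cd84, Arhgap30 and Pum2. Cd84, a leukocyte receptor, was at 3.97, 2.96 and 3.49 CPM in ctrl_vehicle and 2.29, 1.98 and 1.51 CPM in cre_vehicle. Arhgap30, a GTPase-activating protein of blood cells, was at 5.12, 3.28 and 4.25 CPM in ctrl_vehicle and 2.31, 2.26 and 2.15 CPM in cre_vehicle. Pum2, a Pumilio RNA-binding protein, was at 171, 162 and 142 CPM in ctrl_vehicle and 138, 93.9 and 85.4 CPM in cre_vehicle. That the groups of these 3 genes did not overlap was a condition of the rule. None of the 3 passed the threshold (log2 fold changes -0.85 (SE 0.24), -0.91 (SE 0.27) and -0.58 (SE 0.18)). The zinc finger gene Zfp740 had a log2 fold change of -1.24 (SE 0.36), and Sco2, a copper chaperone of cytochrome oxidase whose exons overlap Tymp and Ncaph2, one of -2.16 (SE 0.61). Of the Sco2 stretches of 31 bases 89.7% also occur in Tymp or Ncaph2, which makes its count uncertain. Sco2 was at 4.41, 6.21 and 1.65 CPM in ctrl_vehicle and 1.07, 1.22 and 0.446 CPM in cre_vehicle. Tymp, chosen after its values were seen, was at 2.745, 2.64 and 9.29 CPM in ctrl_vehicle and 6.17, 6.77 and 8.40 CPM in cre_vehicle. The vehicle libraries low for Sco2 were the high ones for Tymp. The remaining genes of the 12 were Krcc1, Slc39a9, Gatad2b, Prx, Pcdhgb4, H2-Q1 and Nanp. Pcdhgb4, a clustered protocadherin, was at 5.62, 185 and 75.3 CPM in ctrl_vehicle and 3.40, 4.35 and 3.43 CPM in cre_vehicle, so that ctrl_vehicle 1 was close to cre_vehicle and the other 2 control libraries were far above it. It passed in DESeq2 and in edgeR without ctrl_vehicle 1 (adjusted p = 8.74e-04, alternatives from 8.58e-07 to 1.00). With AA14 Pcdhgb4 was at 1.27, 1.89 and 1.14 CPM in ctrl_AA14 and 5.76, 4.84 and 4.13 CPM in cre_AA14. There the cre libraries were the higher ones (edgeR log2 fold change 1.78 with SE 0.81, unadjusted p = 0.0489). Of the 31-base stretches of Pcdhgb4 46.7% also occur in other genes, which makes its count uncertain. Exons of Krcc1, Slc39a9, Gatad2b, Zfp740 and Prx also overlap another gene, so part of their counts could belong to it. Of their 31-base stretches 4.9%, 4.8%, 3.1%, 4.6% and 3.4%, in that order, also occur in other genes.

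The 12 genes of smallest p in the higher direction, by the same rule, included Scaf11 and Zranb2, which encode proteins of RNA splicing. Scaf11, a splicing-associated protein, was at 51.6, 53.1 and 53.4 CPM in ctrl_vehicle and 73.8, 70.4 and 71.0 CPM in cre_vehicle. Its groups are tight and apart (edgeR log2 fold change 0.44 with SE 0.12, unadjusted p = 0.00311). Zranb2, another splicing factor, was at 57.8, 57.3 and 43.3 CPM in ctrl_vehicle and 108, 82.3 and 67.6 CPM in cre_vehicle (edgeR log2 fold change 0.70 with SE 0.23, unadjusted p = 0.00992). Its highest library, cre_vehicle 1, was also the vehicle library with the most nuclear-retained RNA, whose part in the value was not tested. Cyp2f2, a cytochrome P450 that marks folliculostellate and stem cells of the pituitary, was at 183, 202 and 196 CPM in ctrl_vehicle and 271, 259 and 307 CPM in cre_vehicle (edgeR log2 fold change 0.52 with SE 0.16, unadjusted p = 0.00614). With AA14 Cyp2f2 was at 294, 316 and 252 CPM in ctrl_AA14 and 206, 298 and 276 CPM in cre_AA14, so the control libraries were not the lower ones there. Its list of 19 stem and folliculostellate genes was split under vehicle, with 11 above and 8 below 0, median log2 fold change 0.04. Nes and Cd9 were among the 8 (log2 fold changes -0.48 with SE 0.23 and -0.48 with SE 0.25). Ccnd3, the cell cycle gene cyclin D3, was at 31.7, 31.5 and 27.4 CPM in ctrl_vehicle and 52.0, 68.9 and 37.4 CPM in cre_vehicle, and the zinc finger gene Zfp346 at 10.6, 8.29 and 8.10 CPM in ctrl_vehicle and 14.6, 17.8 and 18.6 CPM in cre_vehicle. None of these 5 genes passed the threshold, and the order of their libraries, cre_vehicle above ctrl_vehicle, was a condition of the rule. Exons of Cyp2f2, Ccnd3, Zfp346 and, among the genes below, Mir99ahg also overlap another gene, so part of their counts could belong to it. Of the 31-base stretches of Cyp2f2, Ccnd3, Scaf11, Zfp346 and Mir99ahg, 10.9%, 8.0%, 8.0%, 0.1% and 1.6%, in that order, also occur in other genes.

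The other 7 genes named in the higher direction had the same order of libraries, which the rule required. They were the meiotic telomere gene Terb1 with a log2 fold change of 1.40 (SE 0.42), the natriuretic peptide gene Nppc with 1.19 (SE 0.38), the metalloprotease gene Adamts6 with 0.94 (SE 0.33), the long noncoding host transcript Mir99ahg with 0.81 (SE 0.28), the sulfotransferase gene Chst10 with 0.69 (SE 0.24), Commd8 with 0.59 (SE 0.21), and Skida1. Skida1 was at 0.177, 0.227 and 0.220 CPM in ctrl_vehicle and 6.17, 0.241 and 5.49 CPM in cre_vehicle. Library cre_vehicle 2 lay just above the controls and the other 2 cre libraries far above. It passed in DESeq2 and in edgeR without cre_vehicle 2 (log2 fold change 4.79, adjusted p = 1.15e-04, alternatives from 2.69e-05 to 1.00). The 6 AA14 libraries held 3.72 to 6.38 CPM of Skida1, at the level of cre_vehicle 1 and 3, so that ctrl_vehicle 1, 2 and 3 and cre_vehicle 2 were the low libraries of the 12.

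The cre effect with AA14 uses 6 other libraries and so bears on which differences recur. Of the 211 genes higher under vehicle at an unadjusted p under 0.05, 56 (26.5%) were also higher with AA14, against 34.6% of all genes with a log2 fold change above 0. Of the 241 lower genes, 102 (42.3%) were also lower, against 37.8% of all genes below 0. An unadjusted p under 0.05 in the same direction in both comparisons was reached by 3 higher and 4 lower genes, and in opposite directions by 15 and 17. With AA14 itself 0 of 22630 genes passed in edgeR and 1927 (8.52%) had an unadjusted p under 0.05, 7.08% of all genes being higher and 1.44% lower at that level. The 6 cre and the 6 control libraries did not overlap for 15 genes (0.0663%), 5 higher and 10 lower (0.0221% and 0.0442%). None of the 15 passed the edgeR threshold under vehicle or with AA14. How many genes would separate in this way under random labels was not tested.

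Gm9824 was the clearest of the recurring genes. Gm9824 (ENSMUSG00000095478, chr10:29030128-29030688, plus strand) is a processed pseudogene of which 76.5% of the 31-base stretches also occur in Gm10819 or Pebp1 transcripts. It was at 12.6, 10.5 and 15.1 CPM in ctrl_vehicle and 24.1, 29.7 and 28.8 CPM in cre_vehicle. With AA14 it was at 10.1, 13.2 and 11.6 CPM in ctrl_AA14 and 23.2, 22.7 and 32.0 CPM in cre_AA14. All 6 cre libraries, at 22.7 CPM or more, were above all 6 control libraries, at 15.1 CPM or less. The log2 fold change was 1.11 (SE 0.20) under vehicle (edgeR unadjusted p = 1.46e-04) and 1.16 (SE 0.20) with AA14 (edgeR unadjusted p = 1.06e-04), and the difference between them was 0.04 (SE 0.28). Averaged over both treatments, a contrast added after the data were seen, it was 1.13 (SE 0.14, edgeR adjusted p = 0.0576), short of the threshold, which Gm47308 passed. For this average Gm9824 passed in 4 of 22 alternatives, namely DESeq2 (adjusted p = 3.31e-10), limma-voom (0.00485), upper quartile size factors (0.0298) and genes at 1 CPM or more (0.0379), and over all of them the adjusted p ran up to 1.00. Under vehicle alone Gm9824 passed in DESeq2 (adjusted p = 1.70e-04, alternatives from 1.70e-04 to 1.00). Gm10819, which shares 71% of its stretches, was at 4.53, 3.41 and 6.67 CPM in ctrl_vehicle and 5.97, 7.35 and 7.03 CPM in cre_vehicle, and Pebp1, which encodes a Raf kinase inhibitor protein, at 231, 212 and 287 CPM in ctrl_vehicle and 148, 231 and 226 CPM in cre_vehicle. Both, chosen after their values were seen, overlapped between the groups under vehicle. With AA14 Gm10819 was at 3.89, 4.61 and 4.73 CPM in ctrl_AA14 and 6.49, 7.29 and 7.21 CPM in cre_AA14. Those groups did not overlap, with cre_AA14 the higher. The part of shared reads in the Gm9824 value was not tested.

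Another 2 genes separated the genotypes in all 12 libraries with an unadjusted p under 0.05 in each comparison, and they share no 31-base stretch with another gene. They lie outside the naming rule and were chosen after their values were seen. Gm15201 (chrX:162735078-162736613, minus strand), a noncoding transcript, was at 1.08, 0.938 and 0.906 CPM in ctrl_vehicle and 0.404, 0.375 and 0.292 CPM in cre_vehicle. With AA14 it was at 1.05, 0.902 and 1.23 CPM in ctrl_AA14 and 0.459, 0.399 and 0.676 CPM in cre_AA14. Its cre libraries were all below its control libraries (edgeR log2 fold change -1.44 with SE 0.36, unadjusted p = 0.00203; with AA14 log2 fold change -1.05, SE 0.36, edgeR unadjusted p = 0.0132). Bicdl2 (chr17:23660506-23668621, plus strand), a cargo adaptor of the BICD family, was at 0.812, 1.35 and 0.824 CPM in ctrl_vehicle and 1.86, 1.71 and 1.78 CPM in cre_vehicle. With AA14 it was at 1.10, 0.830 and 0.838 CPM in ctrl_AA14 and 1.58, 1.67 and 1.65 CPM in cre_AA14. Its cre libraries were all above its control libraries (edgeR log2 fold change 0.84 with SE 0.30, unadjusted p = 0.0163; with AA14 log2 fold change 0.82, SE 0.30, edgeR unadjusted p = 0.0188). Neither passed the edgeR threshold, and exons of Bicdl2 overlap Thoc6.

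Some genes had counts near 0 in some vehicle libraries and high counts in others. There were 128 tested genes with at most 0.1 CPM in 1 vehicle library and at least 5 CPM in another, and exons of 53 of them (41.4%) overlapped another gene, against 34.9% of the tested genes with an annotation. Gm28048, a gene model whose stretches are 98.9% shared with B3gnt2 and Commd1, was at 0, 0.0142 and 0.0137 CPM in ctrl_vehicle and 0, 48.8 and 54.3 CPM in cre_vehicle. B3gnt2, a glycosyltransferase gene chosen after its values were seen, was at 55.9, 57.8 and 45.4 CPM in ctrl_vehicle and 62.4, 2.19 and 4.01 CPM in cre_vehicle. The libraries high for Gm28048 were the low ones for B3gnt2. With AA14 the same exchange was seen, at 49.2, 44.6 and 54.9 CPM in ctrl_AA14 and 59.8, 0.0181 and 57.9 CPM in cre_AA14 for Gm28048 against 12.1, 4.62 and 4.77 CPM in ctrl_AA14 and 4.24, 62.2 and 3.90 CPM in cre_AA14 for B3gnt2. Nanp, a sialic acid phosphatase gene that overlaps Ninl, was at 8.09, 0.0568 and 0.0549 CPM in ctrl_vehicle and 0, 0 and 0 CPM in cre_vehicle, and H2-Q1, a class I histocompatibility gene, at 1.24, 1.02 and 4.68 CPM in ctrl_vehicle and 0, 0 and 0 CPM in cre_vehicle. No count in 3 libraries allows up to 0.0159 CPM over cre_vehicle (3 counts, counting error only), which makes H2-Q1 at least 146-fold and Nanp at least 172-fold lower there by group mean. A single control library weighed on each limit: without ctrl_vehicle 3 it was 71.4-fold for H2-Q1, and without ctrl_vehicle 1 it was 3.52-fold for Nanp. Of the 31-base stretches of Nanp 52.1% also occur in other genes, and of those of H2-Q1 24.1%. Both counts are therefore uncertain beyond counting error. With AA14 the cre libraries held 3.57, 8.97 and 5.67 CPM of Nanp and 2.05, 0 and 0.732 CPM of H2-Q1, so H2-Q1 was without a count in 1 of those 3 libraries and Nanp in none. The 19 genes called by DESeq2 were 0.0851% of the 22325 it tested, 11 higher (0.0493%) and 8 lower (0.0358%), and exons of 9 overlap another gene. Besides those named above they were Chat, Nr2e1, Trpc2, Gm2808, Gm10260, Gm3883, Gm2026, Gm8225 and Gm14308. Each of these 9 had no count in 1 of the groups, and all but Gm2026 had none in at least 1 library of the other.

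The hormone genes overlapped between the groups, and none passed. Growth hormone, Gh, was at 90441, 176348 and 116909 CPM in ctrl_vehicle and 211643, 110913 and 164392 CPM in cre_vehicle (edgeR log2 fold change 0.34 with SE 0.32, unadjusted p = 0.310). The lowest and highest libraries of each group lay farther apart than the group means. Prolactin, Prl, was at 65720, 66718 and 35563 CPM in ctrl_vehicle and 31140, 59387 and 73783 CPM in cre_vehicle, and Pomc, the precursor of adrenocorticotropin, at 33398, 19236 and 11581 CPM in ctrl_vehicle and 18648, 20902 and 20579 CPM in cre_vehicle. Their log2 fold changes were -0.03 (SE 0.40) and -0.09 (SE 0.41). In the cell types that express Cga, the thyrotroph hormone gene Tshb was at 277, 305 and 146 CPM in ctrl_vehicle and 493, 192 and 245 CPM in cre_vehicle. The gonadotroph hormone genes were Lhb at 580.4, 593 and 460.5 CPM in ctrl_vehicle and 816, 465 and 699.7 CPM in cre_vehicle and Fshb at 1303, 1001 and 671 CPM in ctrl_vehicle and 1338, 849 and 1058 CPM in cre_vehicle. The common subunit gene Cga was at 6126, 5063 and 3169.8 CPM in ctrl_vehicle and 7149, 3277 and 5314 CPM in cre_vehicle. Log2 fold changes were 0.35 (SE 0.36) for Tshb, 0.28 (SE 0.21) for Lhb, 0.13 (SE 0.27) for Fshb and 0.13 (SE 0.28) for Cga. In all 4 genes cre_vehicle 1 was the highest library, and ctrl_vehicle 3 the lowest.

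In parentheses after each list median stand the lowest and highest medians with 1 vehicle library left out. Marker lists of the pituitary lineages had medians near that of all genes, which was -0.02 with 46.2% of genes above 0 and 53.8% below. The gonadotroph list (11 tested) had 9 above and 2 below 0, median 0.13 (0.04 to 0.27), and the thyrotroph list (8) 6 above and 2 below 0, median 0.11 (-0.11 to 0.16). Foxp2, a transcription factor gene on the gonadotroph list, was at 14.6, 15.9 and 12.9 CPM in ctrl_vehicle and 16.9, 16.3 and 17.6 CPM in cre_vehicle, the only member of these 2 lists whose groups did not overlap (edgeR log2 fold change 0.23 with SE 0.16, unadjusted p = 0.186). The somatotroph list (12) had 7 above and 5 below 0, median 0.08 (-0.08 to 0.21), the lactotroph list (10) 5 above and 5 below 0, median -0.01 (-0.17 to 0.20), the corticotroph list (9) 5 above and 4 below 0, median 0.04 (-0.07 to 0.30) and the melanotroph list (9) 5 above and 4 below 0, median 0.03 (-0.28 to 0.38). Lineage transcription factors (19) had 8 above and 11 below 0, median -0.04 (-0.15 to 0.21). Stem and folliculostellate genes (19) had 11 above and 8 below 0, median 0.04 (-0.15 to 0.17), with Cyp2f2 as the only member under an unadjusted p of 0.05. Over all lists, 0 of 667 tested members passed in edgeR, 6 were higher and 13 lower at an unadjusted p under 0.05 (2.85%, against 2% of all genes), and DESeq2 and limma-voom called none of the 667.

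Markers of other cells followed single libraries. The Schwann cell list (7) had 0 above and 7 below 0, median -3.22 (-3.78 to 0.11), and its summed level was 33.9, 33.7 and 1299 CPM in ctrl_vehicle and 32.9, 33.5 and 34.7 CPM in cre_vehicle. Only ctrl_vehicle 3 was high, and without it the median was 0.11. Prx, periaxin, was at 2.79, 2.10 and 141 CPM in ctrl_vehicle and 0.789, 1.36 and 1.69 CPM in cre_vehicle. Hypothalamic neurohormone genes (6) had 0 above and 6 below 0, median -2.80 (-3.29 to -0.27), and again ctrl_vehicle 3 stood apart, with a median of -0.27 without it. Avp was at 17.6, 12.1 and 293 CPM in ctrl_vehicle and 2.02, 12.1 and 17.8 CPM in cre_vehicle and Trh, the gene of thyrotropin-releasing hormone, at 0.0590, 0.0568 and 45.6 CPM in ctrl_vehicle and 0.162, 0 and 0 CPM in cre_vehicle. Oligodendrocyte and myelin genes (12) had 6 above and 6 below 0, median -0.02 (-3.67 to 4.01), with sums of 136, 114 and 2525 CPM in ctrl_vehicle and 80.2, 3430.2 and 162 CPM in cre_vehicle. Here 1 library of each group was high, and the median was 4.01 without ctrl_vehicle 3 and -3.67 without cre_vehicle 2. Neuron genes (10) had 1 above and 9 below 0, median -0.22 (-1.56 to 0.94), and astrocyte genes (6) had 3 above and 3 below 0, median 0.02 (-1.99 to 1.45). Both also turned sign between these 2 settings, and pituicyte genes (8) had 1 above and 7 below 0, median -0.24 (-0.67 to 0.13), with 0.13 without ctrl_vehicle 3.

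Among the 46 lists the red cell genes had the largest positive median. All 8 tested members had log2 fold changes above 0, with a median of 1.28 (0.96 to 1.78). The sums were 1246, 4269.8 and 2336 CPM in ctrl_vehicle and 3286, 7817 and 7446 CPM in cre_vehicle, so cre_vehicle 1 lay below ctrl_vehicle 2. The beta globin gene Hbb-bs was at 438, 1235 and 580.1 CPM in ctrl_vehicle and 1009, 2119 and 2221 CPM in cre_vehicle (edgeR log2 fold change 1.25 with SE 0.56, unadjusted p = 0.0486). With AA14 the list median was -0.44, with 0 members above 0. Macrophage genes (13) had 1 above and 12 below 0, median -0.32 (-0.44 to -0.22). With AA14 these genes had 9 above and 4 below 0, median 0.07. Their sums of 284, 200.1 and 282 CPM in ctrl_vehicle and 229, 202 and 188 CPM in cre_vehicle overlapped, and Fcer1g, an Fc receptor subunit, had the smallest p (edgeR log2 fold change -0.45 with SE 0.20, unadjusted p = 0.0474). T and NK cell genes (14) had 12 above and 2 below 0, median 0.45 (-0.23 to 0.78), with -0.23 without cre_vehicle 1. B and plasma cell genes (10) had 7 above and 3 below 0, median 0.48 (0.20 to 0.67). With AA14 the B cell list median was -0.62. The immunoglobulin gene Igkc was at 1.15, 0.711 and 0.467 CPM in ctrl_vehicle and 17.1, 1.63 and 0.892 CPM in cre_vehicle, where cre_vehicle 1 was the high library. Neutrophil genes (7) had 5 above and 2 below 0, median 0.12 (-0.26 to 0.68), endothelial genes (12) 5 above and 7 below 0, median -0.04 (-0.15 to 0.20), mural cell and fibroblast genes (14) 2 above and 12 below 0, median -0.26 (-0.38 to 0.12) with 0.12 without ctrl_vehicle 3, skeletal muscle genes (12) 9 above and 3 below 0, median 0.22 (0.03 to 0.51), and cartilage and bone genes (6) 2 above and 4 below 0, median -0.16 (-1.08 to 0.61). The cartilage and bone median was 0.61 without ctrl_vehicle 3 and -1.08 without cre_vehicle 2, and the neutrophil median -0.26 without cre_vehicle 2.

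**Figure D4:**
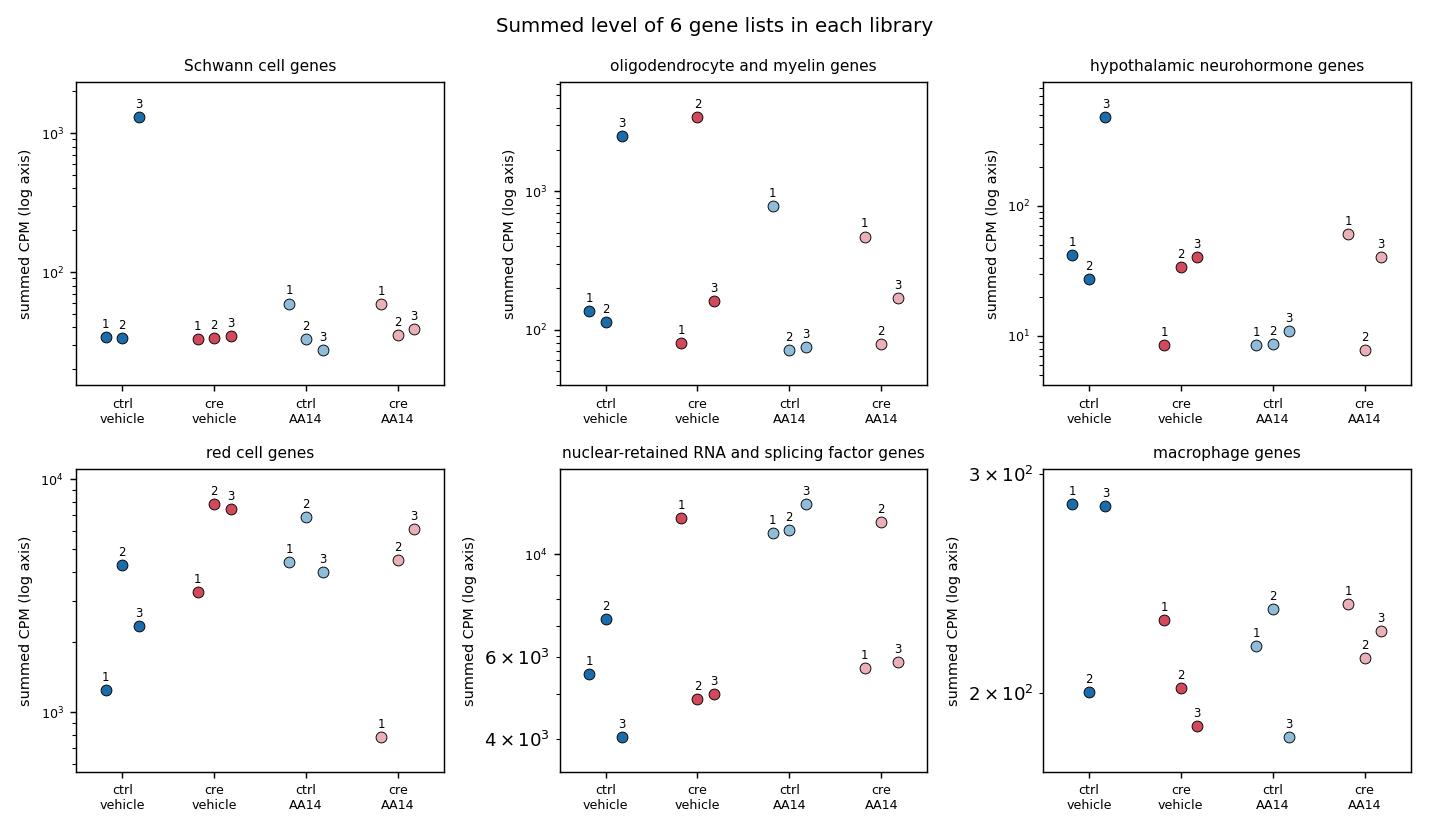
Summed CPM of 6 gene lists (vertical axes, log scale) in all 12 libraries, grouped by virus and treatment; points carry the library number. Among the vehicle libraries, ctrl_vehicle 3 is high for Schwann cell and hypothalamic genes, ctrl_vehicle 3 and cre_vehicle 2 for oligodendrocyte genes, and cre_vehicle 1 for nuclear-retained RNA and splicing factor genes.

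Genes of the pathway in which Gpr101 acts showed small differences, and 0 members of the 5 lists passed or reached an unadjusted p under 0.05 (edgeR). Gs-coupled receptors, Gpr101 included (16), had 6 above and 10 below 0, median -0.09 (-0.47 to 0.25). Ghrhr, which encodes the GHRH receptor of somatotrophs, was at 125, 159.8 and 84.0 CPM in ctrl_vehicle and 316, 90.6 and 135 CPM in cre_vehicle. cre_vehicle 1 was the high library and the rest overlapped. G protein and adenylyl cyclase genes (20) had 4 above and 16 below 0, median -0.22 (-0.37 to 0.05) and 0.05 without ctrl_vehicle 3, with the cyclase gene Adcy5 at 124, 135 and 166 CPM in ctrl_vehicle and 76.1, 139.6 and 139.8 CPM in cre_vehicle. Protein kinase A genes (11) had 0 above and 11 below 0, median -0.29 (-0.53 to 0.01), and without ctrl_vehicle 3 the median was 0.01. The protein kinase A median was 0.30 with AA14. The kinase inhibitor gene Pkia was at 45.3, 41.4 and 80.6 CPM in ctrl_vehicle and 32.6, 51.7 and 34.6 CPM in cre_vehicle, where ctrl_vehicle 3 was the highest library. Cyclic AMP phosphodiesterase genes (15) had 5 above and 10 below 0, median -0.06 (-0.25 to 0.01). CREB regulators and cAMP-induced genes (17) had 9 above and 8 below 0, median 0.01 (-0.06 to 0.24), Crem among them at 35.1, 60.6 and 23.7 CPM in ctrl_vehicle and 53.7, 48.4 and 52.2 CPM in cre_vehicle.

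In the lists of virus sensing, inflammation, DNA damage and stress, no member passed the edgeR test, and Isg15 alone had an unadjusted p under 0.05. Interferon response genes (26) had 11 above and 15 below 0, median -0.05 (-0.39 to 0.06). Isg15, a ubiquitin-like interferon-induced gene, was at 4.50, 2.39 and 3.87 CPM in ctrl_vehicle and 2.43, 2.13 and 1.45 CPM in cre_vehicle, with a lower mean in cre_vehicle (edgeR log2 fold change -0.84 with SE 0.36, unadjusted p = 0.0375). Nucleic acid sensing genes (12) had 7 above and 5 below 0, median 0.06 (-0.05 to 0.21), antigen presentation genes (16) 7 above and 9 below 0, median -0.02 (-0.09 to 0.15) and inflammatory cytokine genes (13) 4 above and 9 below 0, median -0.13 (-1.02 to 0.18). Genes of p53 and DNA damage (18) had 11 above and 7 below 0, median 0.03 (-0.05 to 0.15), all overlapping between the groups. Immediate-early genes (17) had 2 above and 15 below 0, median -0.34 (-0.61 to 0.19), and the median turned to 0.19 without ctrl_vehicle 1. Fos, an immediate-early transcription factor, was at 233, 38.0 and 8.67 CPM in ctrl_vehicle and 37.7, 19.8 and 60.9 CPM in cre_vehicle, so ctrl_vehicle 1 was far above the other 5 libraries. Heat shock chaperones (14) had 12 above and 2 below 0, median 0.12 (-0.01 to 0.28). Unfolded protein response genes (21) had 18 above and 3 below 0, median 0.14 (0.02 to 0.24), and a median of -0.11 with AA14. Cell cycle genes (20) had 10 above and 10 below 0, median -0.00207 (-0.04 to 0.15).

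Lists of core cell functions had small medians. Nuclear-retained RNA and splicing factor genes (22) had 22 above and 0 below 0, median 0.25 (-0.09 to 0.38), with sums of 5506, 7236 and 4039.5 CPM in ctrl_vehicle and 11941, 4877 and 4989 CPM in cre_vehicle. The high library was cre_vehicle 1, and without it the median was -0.09. Malat1, an abundant nuclear RNA, was at 328, 549 and 199 CPM in ctrl_vehicle and 1391, 365 and 331 CPM in cre_vehicle. Scaf11, a member of this list, differed in that all 3 cre_vehicle libraries held 70.4 CPM or more and without cre_vehicle 1 its log2 fold change was 0.42. The 13 protein genes of the mitochondrial genome had 13 above and 0 below 0, median 0.22 (0.09 to 0.33), and a median of -0.33 with AA14. mt-Atp6 was at 486, 426 and 399.7 CPM in ctrl_vehicle and 534, 572 and 435 CPM in cre_vehicle. Nuclear respiratory chain genes (43) had 6 above and 37 below 0, median -0.11 (-0.18 to -6.59e-04). Cytosolic ribosomal protein genes (77) had 9 above and 68 below 0, median -0.11 (-0.23 to -0.01), and a median of 0.20 with AA14. Rps10 was at 171, 262 and 224 CPM in ctrl_vehicle and 131, 123 and 152 CPM in cre_vehicle, the only one of the 77 ribosomal genes at an unadjusted p under 0.05 in edgeR. Arp2/3 complex genes (10) had 2 above and 8 below 0, median -0.09 (-0.12 to -0.01), granin and prohormone processing genes (12) 6 above and 6 below 0, median 0.01 (-0.09 to 0.08), hormone exocytosis genes (20) 7 above and 13 below 0, median -0.11 (-0.38 to 0.07), and GH and IGF axis genes (18) 6 above and 12 below 0, median -0.06 (-0.20 to 0.08). Without ctrl_vehicle 3 the median was -6.59e-04 for the nuclear respiratory chain and 0.07 for hormone exocytosis. Igf2, insulin-like growth factor 2, was at 313 CPM in ctrl_vehicle 3 and at 37.8 CPM or less in each of the other 5 vehicle libraries.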

How the data were processed

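RNA of 12 mouse pituitary libraries was extracted with TRIzol, prepared with a NEBNext Ultra kit and sequenced as paired reads, per the labels' protocols. The deposited values are raw read counts per Ensembl gene ID, aligned with HISAT2 2.0.0 per the labels' protocols and counted with featureCounts 1.5.0-p3 on GRCm38 per the submitters' processing notes, which also name DESeq 1.8.3. Not given in the sources used here are the annotation release, strandedness and how reads with several matches were treated. Symbols, positions and transcript sequences came from GENCODE M21 (GRCm38), which holds 55154 of 55421 IDs; the others took at most 0.0135% of counts.

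Groups came from the sample labels. Genes were filtered with filterByExpr, and edgeR 4.0.16 (R 4.3.3) fitted 4 group means to all 12 libraries with TMM factors and a quasi-likelihood F test, Benjamini-Hochberg adjusted over 22630 genes, with a threshold of 0.05. Standard errors (SE) were computed as |log2 fold change|/sqrt(F). The common biological coefficient of variation was 0.445. The steps were tested on simulated data. Alternatives were DESeq2 1.42.0, limma-voom with quality weights (limma 3.58.1), other scalings and filters, a replicate block and libraries left out. Gpr101 was also tested by exact permutation (scipy 1.17.1). Genes named were Gpr101, the 7 hormone genes, Gm47308, Rab11a, Krcc1, Malat1 and Avp, the 12 of smallest p in each direction as described, genes called by any tool at 1 CPM or more, and up to 3 of smallest p per list. The comparison, the genes and the lists were chosen with earlier results of these data known. Genes of DESeq2 calls below 1 CPM and those stated in the text were named after their values were seen. Intervals from counts cover counting error only. Some list members are not reported here.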

Additional observations from a re-analysis of the deposited data

Results flagged for a closer look

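For Gm47308 the contrast of cre over control libraries differed between the treatments by a test of the difference itself. The log2 fold change of cre over control was 7.37 under vehicle and 0.33 with AA14, a difference of -7.041 (SE 0.41, edgeR adjusted p = 4.36e-05). All 3 ctrl_vehicle libraries were at or below 0.0295 CPM of Gm47308, and the other 9 libraries held 4.15 CPM or more, whichever virus they had. Every 31-base stretch of Gm47308 also occurs in Rab11a, and its part in the difference was not tested. In limma-voom no gene passed for this difference.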

How the results depend on the processing

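Of the 415 genes at 1 CPM or more with an absolute log2 fold change over 1, 1 passed the threshold. These genes were picked on their fold change in the same libraries, so the count does not show how often true differences were missed. Gm47308 passed in every setting run for the vehicle comparison. The number of genes past the threshold, 1 in the main analysis, was 19 in DESeq2, 2 with RLE size factors, 2 in limma-voom, 5 without ctrl_vehicle 3 and cre_vehicle 2, and 1 to 3 with 1 library left out. It was 3 without ctrl_vehicle 1, without ctrl_vehicle 3 or without cre_vehicle 2. The number at an unadjusted p under 0.05, 452, was 993 in limma-voom, 180 with a log2 fold minimum of 1, 256 at a mean of at least 1 CPM, 719 with no low-count filter, 230 with the vehicle libraries only, and 415 to 817 with 1 library left out (800 without ctrl_vehicle 2, 817 without cre_vehicle 2). For the cre effect averaged over both treatments, a contrast chosen after seeing the data, 1 gene passed, against 12 in DESeq2, 2 in limma-voom, 2 at a mean of at least 1 CPM, 2 with upper quartile size factors, 3 without ctrl_vehicle 3 and cre_vehicle 2, and 1 to 3 with 1 library left out (2 without ctrl_vehicle 1, 3 without cre_vehicle 2). For the difference of the cre effect between AA14 and vehicle 1 gene passed, against 26 in DESeq2, 0 in limma-voom, 3 without ctrl_vehicle 3 and cre_vehicle 2, and 1 to 3 with 1 library left out (3 without ctrl_vehicle 1, ctrl_vehicle 3 or cre_vehicle 2, and 2 without cre_AA14 1). The cause of these differences was not tested.

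Deviations from the group means correlated at 0.22, -0.33 and -0.10 between the ctrl_vehicle and cre_vehicle libraries of numbers 1, 2 and 3. The largest correlation, 0.46, was between ctrl_vehicle 3 and cre_vehicle 2. Whether equal numbers stand for a shared preparation cannot be told from these values. With the replicate block the vehicle comparison had 1 call and 313 genes at an unadjusted p under 0.05, and Pomc turned to 0.0370. Signs of uncalled genes turned as follows. In limma-voom Gpr101 was 0.0521, Prl 0.0349, Tshb -0.132, Fshb -0.0593, Cga -0.0978 and Malat1 -0.0218. Without ctrl_vehicle 3 and cre_vehicle 2, Gpr101 was 0.388 and Trh 0.432. With 1 library left out, Gpr101 ranged from -1.77 to 0.89 (from -1.03 to 0.61 for the difference in mean log2 level), Prl from -0.31 to 0.25, Pomc from -0.39 to 0.38, Tshb from -0.15 to 0.60, Fshb from -0.0918 to 0.37, Cga from -0.16 to 0.38, Malat1 from -0.0402 to 1.40 and Igf2 from -2.67 to 0.0756. Of 1127 values of single genes, 1090 kept direction and side of the threshold, 15 newly passed and 22 turned sign, and 431 of 460 list medians moved by less than the spread between libraries.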
